A study of Mus musculus with 272 samples.

Results

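The data concern 7 genes of the mouse oocyte: the secreted growth factors Gdf9 and Bmp15, the secreted protein gene Oosp1, the receptor tyrosine kinase gene Kit, and the transcription regulators Nobox, Figla and Taf4b. They were taken by name, and all 7 were present among 15771 genes with distinct values. RNA was sequenced at 8 stages: germinal vesicle (GV) oocyte, metaphase II (MII) oocyte, zygote, 2-cell, 4-cell and 8-cell embryo, morula and blastocyst. Each stage had 4 whole-cell transcriptome libraries, each from a pool of 20 oocytes or embryos, and 3 sucrose gradients, lettered A to C and loaded with about 100 oocytes or embryos each. Each gradient was cut into 10 fractions that were sequenced separately, 240 fraction libraries in all. The labels name no strain, genotype, age or hormone treatment. All lysates for gradients contained cycloheximide, which holds ribosomes on their transcripts, and all libraries were made from polyadenylated RNA, so a shorter poly(A) tail and less transcript cannot be told apart. Every library is a pool, so nothing can be said of single oocytes or embryos, and the p-values measure the spread between pools.

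GDF9 and BMP15 are related ligands of the transforming growth factor beta family that the oocyte secretes to act on the granulosa cells around it. They signal through type I and type II serine/threonine kinase receptors and SMAD proteins. KIT on the oocyte surface receives KIT ligand from granulosa cells and drives the PI3 kinase pathway in the growing oocyte. NOBOX, a homeobox protein, and FIGLA, a basic helix-loop-helix protein that binds E-boxes with partners such as TCF3, activate oocyte genes in the growing follicle, among them genes of the zona pellucida. TAF4B is a variant subunit of TFIID, the general factor that binds core promoters. In the full-grown oocyte transcription is largely silent, and stored transcripts are translated or degraded until the embryonic genome takes over, which in the mouse occurs mainly at the 2-cell stage. Heavier fractions of a sucrose gradient hold transcripts with more ribosomes, and here fractions 1 to 5 are called light and fractions 6 to 10 heavy.

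Levels are CPM, a gene's reads as a share of its library's total, given per M reads (M stands for mega). They are not scaled to transcript length, so they are compared between stages and not between genes. Changes are differences of log2(CPM + 1) with their standard error (SE). A gene is said to rise or fall where the limma moderated test gave a Benjamini-Hochberg adjusted p under 0.05 over all genes tested and the change was at least 1 on this log2 scale. Depth ran from 11.2 to 24.3 M reads per transcriptome and, with far more spread, from 0.0102 to 43.2 M reads per fraction. Oocyte markers (7 genes, Zp2 and Dazl among them) summed to 11950 to 13640 CPM in GV and to 9.55 to 15.4 CPM in blastocyst transcriptomes, and 5 markers of the 2-cell embryo summed to 2061 to 2859 CPM at the 2-cell stage and to at most 84.8 CPM at any other. Of 12 markers of cumulus and granulosa cells 5 were in the table, and they summed to 41.9 to 50.2 CPM in GV and 65.4 to 75.6 CPM in MII oocytes, with Cyp19a1 the highest at means of 37.96 and 62.71 CPM. Their part in the results was not tested. Gradients of the 2-cell and 4-cell stages were the most uneven: where a gene had at least 100 CPM in the same fraction of both other gradients, it was at 0 in the remaining one in 4.51% of cases at the 2-cell and 4.15% at the 4-cell stage, against 0.041% in MII oocytes. A 0 in such a fraction lowers a mean on the log scale, so falls in the heavy fractions at these stages carry this scatter with them.

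Across the stages, 6 of the 7 transcripts were oocyte transcripts that were nearly gone from the whole-cell transcriptomes by the 4-cell stage. Taf4b was lowest in the GV oocyte and highest at the 4-cell stage. Fractions of the 4-cell gradients averaged more: 295.2 CPM of Gdf9 against 11.88 CPM in transcriptomes, and 49.1 against 4.67 CPM of Bmp15. Oosp1 had 48.9 against 6.47 CPM, Nobox 26.0 against 0.635 CPM and Kit 8.33 against 3.92 CPM, while Figla was at 0 in the fractions. The means of Nobox and Kit rest on few fractions. Of 30 fractions, 6 for Nobox and 3 for Kit held more than the highest transcriptome, and 24 and 27 less than the lowest. Taf4b averaged less in the fractions, 108.2 against 210.5 CPM. What set fractions and transcriptomes apart was not tested. In the transcriptomes the 6 did not go down together before the 4-cell stage. Figla and Nobox fell between the GV and the MII oocyte, Gdf9 fell at each of the next 3 steps, and Oosp1 rose between the GV and the MII oocyte and fell between the zygote and the 2-cell stage. Neither Bmp15 nor Kit had a called change before the 2-cell to 4-cell step, where both fell, but edgeR also called Kit lower at the step before.

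**Figure D1:**
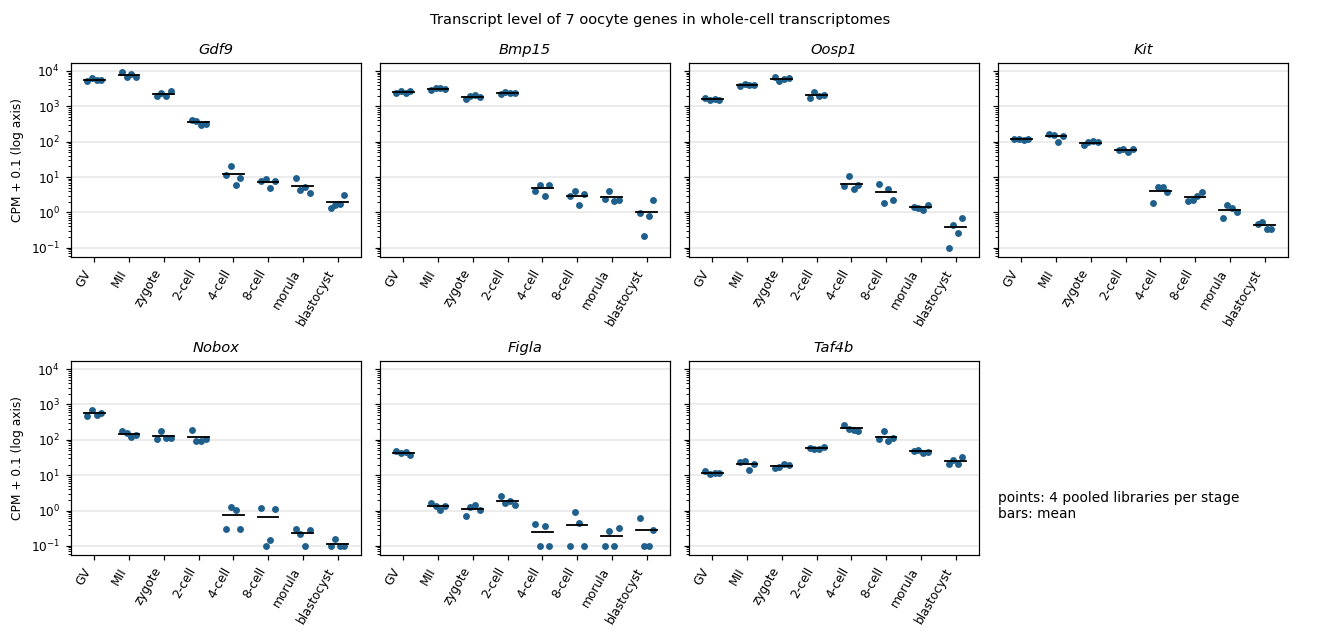
Transcript level of each of the 7 genes in the whole-cell transcriptomes by stage, as CPM + 0.1 on a log axis; points are the 4 pooled libraries of a stage and bars their mean. The step between the 2-cell and 4-cell stages separates high from low levels in Gdf9, Bmp15, Oosp1, Kit and Nobox. Figla drops mainly between GV and MII oocytes, from 43.6 to 1.25 CPM, and Taf4b peaks at 210.5 CPM at the 4-cell stage.

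Gdf9 measured 5191, 6181, 5557 and 5735 CPM in the 4 GV transcriptomes and 9445, 6559, 8023 and 6827 CPM in MII oocytes. All MII libraries lay above all GV libraries, but the difference (0.43 on the log2 scale, SE 0.24) did not pass the test (limma adjusted p = 0.131). In zygotes it measured 1952, 2434, 2019 and 2803 CPM and in 2-cell embryos 303.8 to 408.6 CPM, and the 4 groups did not overlap. The mean fell from 7713 ± 1318 (SD, n = 4) in MII oocytes to 2302 CPM in zygotes, 3.35-fold lower (log2 change -1.74, SE 0.24, limma adjusted p = 7.35e-07). It fell again by 6.54-fold to the 2-cell stage (log2 change -2.70, adjusted p = 7.5e-12, limma) and by 29.6-fold to the 4-cell stage (log2 change -4.89, adjusted p = 1.31e-19, limma). From the 4-cell stage on its stage means were 11.9 CPM or less, and its further fall between morula and blastocyst, from 5.43 to 1.86 CPM (log2 change -1.13, limma adjusted p = 0.000188), was not called without replicate A (log2 change -0.79).

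Bmp15 went another way. Its transcriptome levels were 2323 to 2722 CPM in GV, 2838 to 3379 CPM in MII oocytes, 1650 to 2085 CPM in zygotes and 2214 to 2537 CPM in 2-cell embryos, and none of the 3 steps passed both thresholds. At the 2-cell stage the level overlapped that of GV oocytes. Between the 2-cell and the 4-cell stage it fell 510-fold, from 2382 ± 144 (SD, n = 4) to 4.67 CPM (log2 change -8.76, SE 0.22, limma adjusted p = 3.87e-28). The 4 libraries at the 4-cell stage lay between 2.89 and 5.97 CPM, and the ranges of the 8-cell embryo, morula and blastocyst overlapped in turn.

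Oosp1, which codes for an oocyte-secreted protein, was the 1 member called higher from GV to MII oocytes in the main fit. Taf4b was called at this step under edgeR and under quantile normalization. It measured 1724, 1486, 1597 and 1526 CPM in GV oocytes, 3728, 4219, 3953 and 3908 CPM in MII oocytes and 6633, 5325, 5747 and 6189 CPM in zygotes, 3 groups with no overlap. The rise from GV to MII was 2.5-fold (log2 change 1.32, SE 0.21, limma adjusted p = 1.79e-06), and under quantile normalization it was 0.91 on the log2 scale and no longer called. The next step, 1.51-fold upwards, stayed under the size threshold. Oosp1 fell 2.86-fold to the 2-cell stage (log2 change -1.53, adjusted p = 1.33e-07, limma), again not called under quantile normalization (log2 change -0.94), and 323-fold to the 4-cell stage (log2 change -8.17, adjusted p = 1.23e-27, limma).

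Kit had 113.7 to 121.9 CPM in GV oocytes, 166.9, 159.1, 95.13 and 149.2 CPM in MII oocytes, 79.85 to 102.1 CPM in zygotes and 49.59 to 61.99 CPM in 2-cell embryos. The 4 MII libraries spread over the GV range, and no step up to the 2-cell stage passed both thresholds. The change from zygote to 2-cell was -0.70 on the log2 scale (limma adjusted p = 0.00453), and with edgeR it was called (log2 change -1.15, adjusted p = 2.97e-05). Kit fell 14.7-fold to 3.92 CPM at the 4-cell stage (log2 change -3.64, SE 0.21, limma adjusted p = 1.09e-17).

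Nobox and Figla fell with meiotic maturation. Nobox measured 477.5, 678.8, 515.5 and 585.3 CPM in GV oocytes and 182, 150.8, 117.3 and 136.9 CPM in MII oocytes, a 3.84-fold fall with no overlap (log2 change -1.94, SE 0.25, limma adjusted p = 1.82e-08). It then kept overlapping levels, with means of 146.8, 126.4 and 119.6 CPM in MII oocytes, zygotes and 2-cell embryos, and fell 188-fold to 0.635 CPM at the 4-cell stage (log2 change -6.20, adjusted p = 1.92e-22, limma). Figla measured 48.71, 42.63, 45.83 and 37.23 CPM in GV oocytes and 1.58, 1.23, 0.938 and 1.27 CPM in MII oocytes. That is 34.8-fold lower on the CPM scale (log2 change -4.31, SE 0.20, limma adjusted p = 4.37e-20). Zygotes and 2-cell embryos had 0.592 to 2.44 CPM of Figla, and the 4-cell stage 0 to 0.309 CPM (log2 change from the 2-cell stage -1.27, limma adjusted p = 4.29e-07, and -0.76 under quantile normalization, where it was not called).

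Taf4b measured 10.77 to 13.21 CPM in GV oocytes, 14.12 to 24.86 CPM in MII oocytes and 15.53 to 20.55 CPM in zygotes. It rose 3.16-fold to 53.33 to 64.14 CPM in 2-cell embryos (log2 change 1.61, SE 0.18, limma adjusted p = 2e-09) and 3.65-fold to 269.9, 205.3, 186.9 and 180.1 CPM at the 4-cell stage (log2 change 1.84, adjusted p = 2.92e-11, limma). None of these groups overlapped from the zygote on. The level then went down, to 120.5 CPM at the 8-cell stage and 46.65 CPM in the morula, and the second of these steps passed the test (log2 change -1.31, limma adjusted p = 1.33e-06). Blastocysts had 24.98 CPM, 8.43-fold below the 4-cell stage and overlapping MII oocytes.

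In counts, between GV and MII 1 of the 7 rose and 2 fell, where 9.11% of all genes tested rose and 25.3% fell (34.5% in either direction). At fertilization, from MII oocyte to zygote, none rose and 1 fell (5.79% and 4.48% of all genes, 10.3% in either direction). At the step to the 2-cell stage 1 rose and 2 fell (25.2% and 8.71%, 33.9% in all), and at the step to the 4-cell stage 1 rose and 6 fell (31.8% and 32.9%, 64.8% in all). None was called between the 4-cell and 8-cell stages (0.451% of all genes rose and 2.14% fell, 2.6% in all), where 2 members, Oosp1 and Taf4b, had an adjusted p under 0.05 without reaching the size threshold. In morulae against 8-cell embryos 1 fell and none rose (3.7% and 8.18%, 11.9% in all), and in blastocysts against morulae 1 fell and none rose (7.97% and 18.8%, 26.8% in all). The median change of the 7 was -4.89 at the 2-cell to 4-cell step and that of all 14642 genes tested was 0.02. Scaling bears on the earlier steps. TMM scaling would add 0.51 to log2 changes of CPM from GV to MII and take 0.45 from those from zygote to 2-cell. On the scale of log2(CPM + 1) the shift is smaller for levels near 1 CPM, such as those of Figla after the GV stage. In the main fit Taf4b was 0.76 higher in MII than in GV oocytes on the log2 scale, under the size threshold. With edgeR, which uses TMM, it was called higher (log2 change 1.32, adjusted p = 1.7e-07). Under quantile normalization it was called as well (log2 change 1.35, limma adjusted p = 2.82e-08), while Oosp1 was not.

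Along the gradients the members differed from each other in GV, MII and zygote. By mean position, Nobox lay on the light side and Kit and Taf4b on the heavy side of the median of all genes in each of these stages. Oosp1 lay near that median in GV oocytes and on the heavy side in MII oocytes and zygotes, Bmp15 on the heavy side in GV and MII oocytes, and Gdf9 in MII oocytes. Figla was on the heavy side in GV oocytes and on the light side after that, with wide spread between gradients. Without fraction 1 Figla lay at 5.53 in MII oocytes and 5.76 in zygotes. The medians of all genes, with fraction 1 included, were 5.60 and 5.55. Medians without fraction 1 were not computed, so how far the light position of Figla rests on that fraction was not tested. Position is summarised as the mean fraction number weighted by CPM, from 1 to 10, averaged over 3 gradients. CPM is a share of each fraction's own library, so all fractions weigh alike whatever RNA they held. Positions therefore do not give the share of a gene's transcripts along the gradient. In GV fraction 1, a single read stood for 95.5 CPM in gradient A and 42.2 CPM in gradient B.

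**Figure D2:**
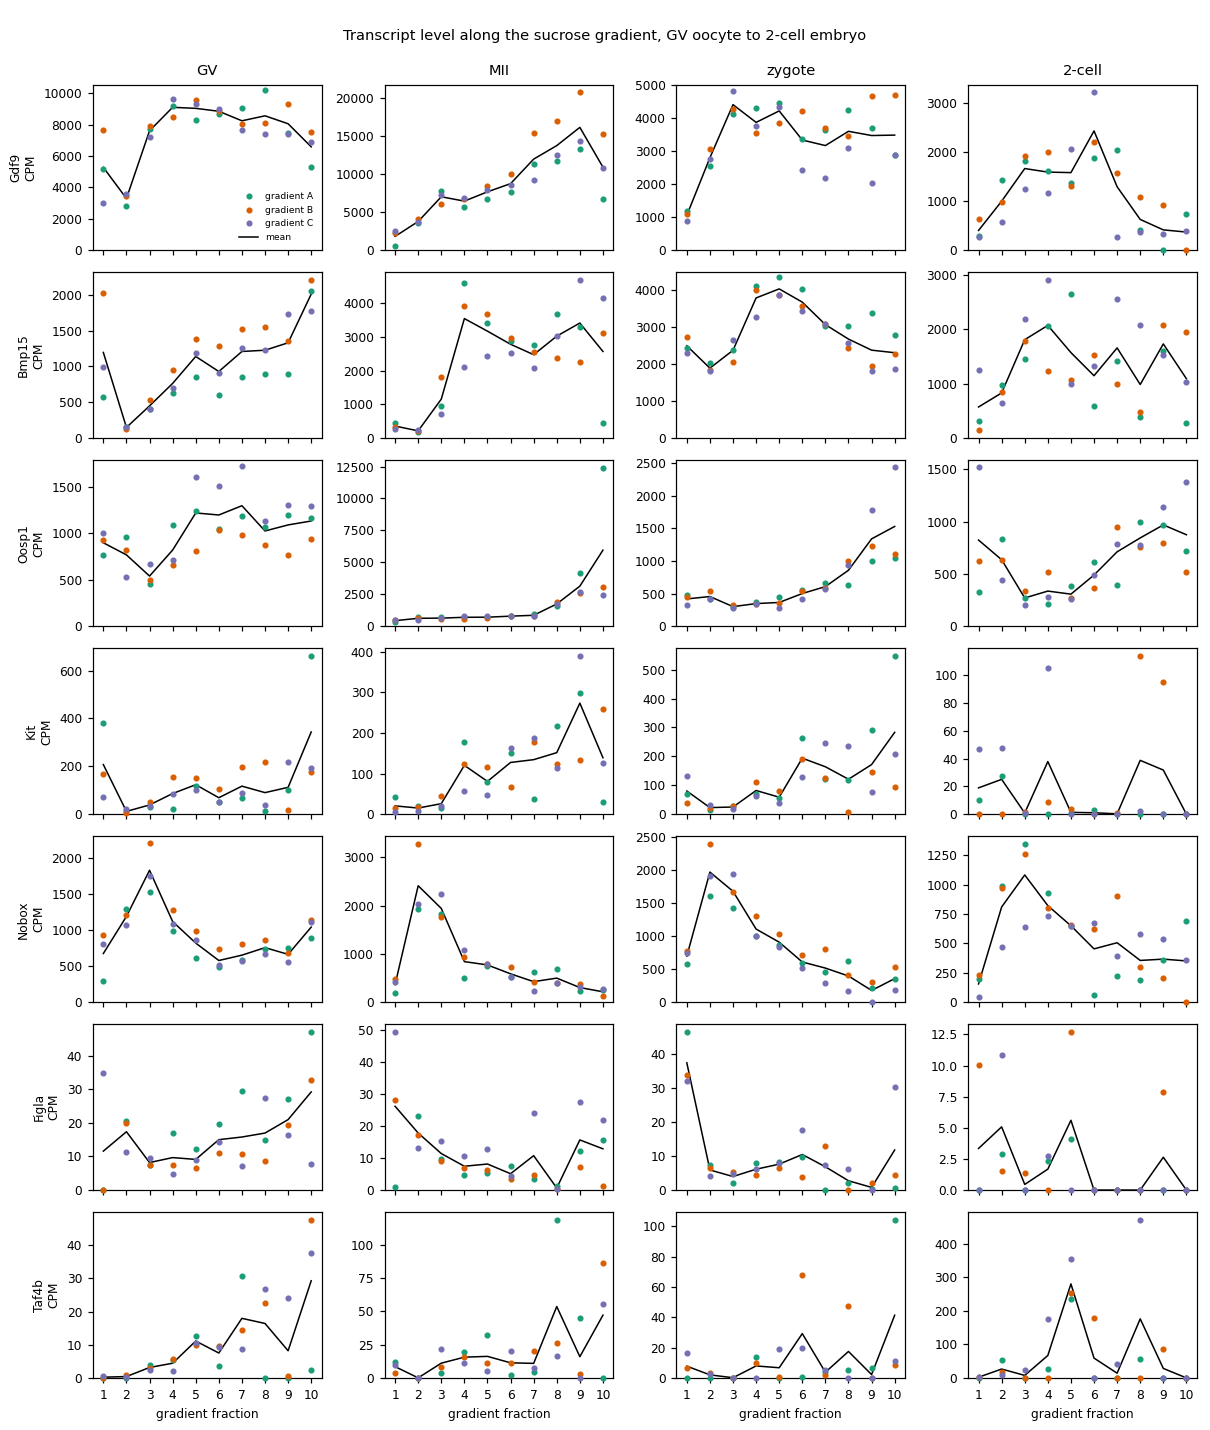
CPM of the 7 genes in each of the 10 gradient fractions (x axis) for GV oocytes, MII oocytes, zygotes and 2-cell embryos; points are the 3 gradients, lines their mean, and each panel has its own linear CPM axis. Nobox is highest in fractions 2 and 3 in MII oocytes and zygotes, Oosp1 climbs towards fraction 10 in the same stages, and Kit is at or near 0 in most 2-cell fractions.

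Gdf9 was near even along the GV gradients, at a position of 5.82 ± 0.08 (SD, n = 3), with the 7326 genes of at least 10 CPM in those fractions at a median of 5.74. In MII oocytes it was at 6.72 ± 0.23 and at 5.77 ± 0.30 in zygotes. The 3 MII gradients peaked in fraction 9, with 13390, 20810 and 14350 CPM, against 3536, 4170 and 3680 CPM in fraction 2. The heavy mean of the MII gradients was 10170, 15730 and 11110 CPM and the light mean 4870, 5582 and 5660 CPM, with no overlap (log2 difference 1.18, SE 0.32, limma adjusted p = 0.00805). The call was lost without gradient B or gradient C. In zygotes the heavy means were 3569, 4151 and 2532 CPM and the light means 3169 to 3333 CPM, which overlapped. Bmp15 lay at 6.54 ± 0.36 in GV and 6.56 ± 0.59 in MII oocytes and at 5.50 ± 0.16 in zygotes. Its heavy means exceeded its light means in every GV and MII gradient, by 0.89 and 0.79 on the log2 scale, which did not pass the test. In GV oocytes all 30 fractions held less Bmp15 than the lowest of the 4 transcriptomes, and in zygotes 23 of 30 held more than the highest.

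Oosp1 had the heaviest position of the 7 in MII oocytes, 7.66 ± 0.70 (SD, n = 3), above 95.4% of the 6854 genes of at least 10 CPM there. In GV oocytes it was at 5.89 ± 0.21. The 3 MII gradients rose from 357.5, 469.5 and 475.7 CPM in fraction 1 to 12380, 3065 and 2417 CPM in fraction 10, so gradient A stood well above the other 2 in that fraction. Heavy means were 3975, 1827 and 1685 CPM and light means 657.2, 578.2 and 621.2 CPM (log2 difference 1.90, SE 0.47, limma adjusted p = 0.00374), and the call was lost without gradient A or gradient B. In zygotes the heavy means, 779, 893.9 and 1229 CPM, again lay above the light means, 401.5, 401.7 and 328.5 CPM, and the log2 difference of 1.34 was just short of the threshold (limma adjusted p = 0.0572) and past it with the gradient as a block (adjusted p = 0.0406).

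Kit lay at 6.46 ± 0.48 in GV oocytes, 7.14 ± 0.47 in MII oocytes and 6.91 ± 0.73 in zygotes. Its heavy means were 147.5, 152.1 and 195.8 CPM in MII oocytes and its light means 66.81, 63.13 and 27.39 CPM (log2 difference 1.73, SE 0.57, limma adjusted p = 0.0315). In zygotes they were 268.1, 112.6 and 179.3 CPM against 47.68, 56.32 and 56.88 CPM (log2 difference 1.70, limma adjusted p = 0.0434, and 0.0809 with the gradient as a block). The sides did not overlap in either stage, but both calls were lost when any 1 gradient was left out.

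Nobox was the only member with a called excess on the light side in oocytes and zygotes. In MII oocytes fraction 2 held 1928, 3280 and 2030 CPM and fraction 10 held 244.3, 126 and 271.1 CPM. The light means were 1036, 1449 and 1311 CPM and the heavy means 460.3, 407.8 and 346 CPM (log2 difference -1.64, SE 0.38, limma adjusted p = 0.00197), a call lost without gradient B. Zygotes gave light means of 1094, 1431 and 1281 CPM and heavy means of 444.8, 551.4 and 230.7 CPM (log2 difference -1.71, SE 0.40, limma adjusted p = 0.00198), a call that held without each gradient in turn. In GV oocytes the profile also peaked in fraction 3, at 1528, 2207 and 1758 CPM, but came up again to 884.9, 1134 and 1106 CPM in fraction 10, and the difference between the sides (-0.60) did not pass the test. Its position was 5.11 ± 0.14 in GV oocytes and 4.04 ± 0.30 in MII oocytes, where 7.7% of the genes of at least 10 CPM lay lighter.

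Figla was low in all fractions. It lay at 6.26 ± 0.98 in GV oocytes, with heavy means of 27.65, 16.47 and 14.62 CPM above light means of 11.43, 8.27 and 13.83 CPM, and at 4.62 ± 1.16 in MII oocytes, where both sides overlapped. Neither difference passed the test. Taf4b was on the heavy side from GV to zygote, at positions of 7.36 ± 1.10, 7.20 ± 0.53 and 6.91 ± 2.04. Its heavy means in MII oocytes were 34.11, 29.34 and 19.88 CPM and its light means 13.41, 7.91 and 9.60 CPM (log2 difference 1.34, limma adjusted p = 0.0454, and 0.0804 with the gradient as a block), a call lost when any 1 gradient was left out. In GV oocytes the heavy means were 7.38, 18.92 and 21.31 CPM against 4.41, 3.95 and 3.29 CPM (log2 difference 1.67, limma adjusted p = 0.0359), and the call was lost without gradient B or gradient C. In zygotes, gradient C went the other way, with 7.26 CPM heavy and 7.83 CPM light, and the call (log2 difference 1.65, limma adjusted p = 0.0166) was lost without gradient A or gradient B.

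**Figure D3:**
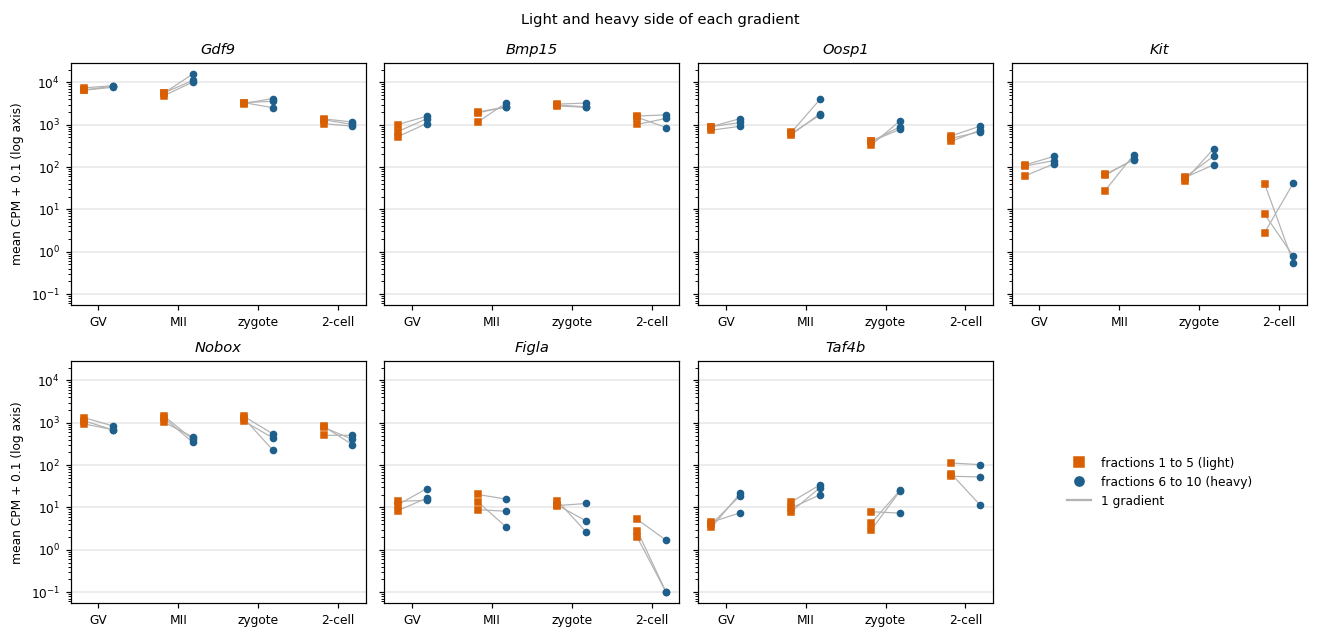
Mean CPM + 0.1 (log axis) of light fractions 1 to 5 (squares) and heavy fractions 6 to 10 (circles) for GV oocytes to 2-cell embryos; lines join both sides of 1 gradient. In all 3 MII gradients Gdf9, Oosp1, Kit and Taf4b are higher on the heavy side and Nobox on the light side, and at the 2-cell stage Kit gradients go both ways.

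Counted over the 7, 1 was called heavier and none lighter in GV oocytes, where 3.3% of all 15172 genes were heavier and 0.811% lighter (4.11% in all). In MII oocytes 4 were called heavier and 1 lighter (8.86% and 6.33%, 15.2% in all), and in zygotes 2 heavier and 1 lighter (9.95% and 5.06%, 15% in all). None was called in 2-cell embryos (1.52% and 2.02%, 3.53% in all), where Figla, at 0, 1.58 and 0 CPM heavy and 1.87, 5.11 and 2.71 CPM light, had the largest difference (-1.55, limma adjusted p = 0.498). These calls depend on the fit. They come from weights that give the uneven 2-cell and 4-cell gradients less influence. With 1 shared spread no member was called in GV, MII or zygote. None was called there with edgeR on reads recovered from the CPM values either. That fit sums reads over the fractions of a side, so its log2 differences change as well as its spread. The values of each gradient given above do not depend on the fit.

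In later embryos Gdf9 lay towards the light fractions, where its low remaining level was measured. At the 4-cell stage the heavy means of Nobox rested on 0, 0 and 2 reads and the light means were 48.74, 71.66 and 35.64 CPM (log2 difference -5.66, SE 1.03, limma adjusted p = 0.00375), the only member of 7 called there (0.125% of all genes heavier and 0.692% lighter, 0.817% in all), and the call was lost without gradient B. In 8-cell embryos none was called (1.08% of all genes heavier and 4.03% lighter, 5.11% in all), although Gdf9 had heavy means of 43.29, 50.44 and 91.63 CPM below light means of 250, 138.2 and 180.2 CPM (limma adjusted p = 0.123), and Nobox, with heavy means of 0, 0 and 9.96 CPM, was called lighter with the gradient as a block (log2 difference -2.33, limma adjusted p = 0.012, and 0.051 without the block). In morulae Gdf9 had heavy means of 0.487, 0.16 and 0.21 CPM and light means of 38.68, 12.86 and 24.19 CPM (log2 difference -4.23, SE 0.40, limma adjusted p = 4.72e-10), 1 of 7 called lighter (5.06% of all genes heavier and 6.29% lighter, 11.4% in all). In blastocysts Gdf9 and Taf4b were both called lighter (7.24% of all genes heavier and 10.1% lighter, 17.4% in all). Gdf9 had heavy means of 0.504, 0.207 and 0.0531 CPM and light means of 3.39, 2.39 and 3.84 CPM (log2 difference -1.75, limma adjusted p = 3.33e-06). Taf4b lay there with heavy means of 5.73, 6.80 and 9.82 CPM below light means of 41.28, 13.2 and 15.75 CPM (log2 difference -1.38, limma adjusted p = 0.00824, and not called without gradient A). Gdf9 in 4-cell fractions 3 and 4 still had 343.6 to 1149 CPM while the 4-cell transcriptomes had 5.90 to 21.12 CPM.

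The heavy side was then compared between stages. No member changed there from GV to MII (4.15% of all 14524 genes rose and 13.6% fell, 17.8% in all). The nearest to the threshold was Figla, with a log2 change of -1.20 (limma adjusted p = 0.0543), and Bmp15 had heavy means of 1060, 1582 and 1378 CPM in GV and 2608, 2643 and 3285 CPM in MII oocytes without passing (log2 change 1.10, limma adjusted p = 0.217). Gdf9 fell on the heavy side from MII to zygote (log2 change -1.86, SE 0.43, limma adjusted p = 0.0111), 1 of 7 where 3.71% of all genes rose and 2.44% fell (6.15% in all); in the transcriptome its change at this step was -1.74. That call was lost without gradient B or gradient C. After the first cleavage Kit was the 1 member of 7 that fell (3.15% of all genes rose and 8.46% fell, 11.6% in all), from 268.1, 112.6 and 179.3 CPM to 0.682, 41.93 and 0.438 CPM (log2 change -5.23, SE 1.01, limma adjusted p = 0.00144). The 2-cell gradients differed widely among themselves, with 113.7 and 95.26 CPM of Kit in fractions 8 and 9 of gradient B and at most 3.07 CPM in any heavy fraction of gradients A and C, and without replicate A the call was lost (log2 change -4.19, limma adjusted p = 0.0937), as it was with edgeR (log2 change -2.75, adjusted p = 0.427). Between the 2-cell and 4-cell stages Gdf9, Bmp15, Nobox and Oosp1 fell (7.56% of all genes rose and 10.9% fell, 18.5% in all). The call of Bmp15 was lost without gradient C and that of Oosp1 without gradient A. Nobox fell from 304.8, 405.6 and 506.2 CPM to 0, 0 and 0.027 CPM, each of these 3 at or under 3 reads, and was called under every alternative tried.

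**Figure D4:**
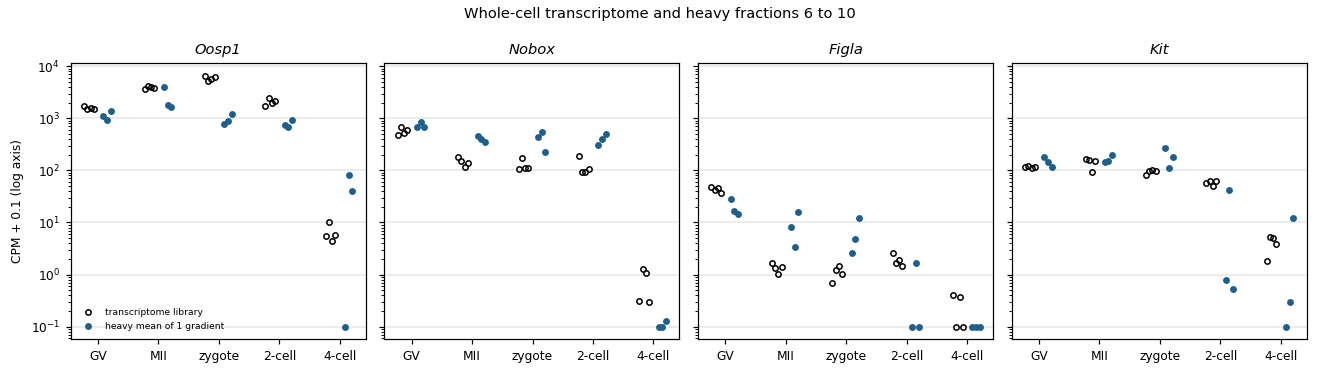
CPM + 0.1 (log axis) of Oosp1, Nobox, Figla and Kit in the 4 whole-cell transcriptomes (open circles) and in the heavy fractions 6 to 10 of the 3 gradients (filled circles, mean of 5 fractions) from GV oocyte to 4-cell embryo. Figla transcriptomes drop from GV to MII while its heavy means do not drop as far, and Oosp1 transcriptomes rise to the zygote while its heavy means are highest in MII oocytes.

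The difference between the change on the heavy side and the change in the transcriptome was tested as an interaction. From GV to MII it was called for Figla alone of the 7, as higher (12.3% of all 15165 genes higher and 4.34% lower, 16.6% in all). Figla went from 43.6 to 1.25 CPM in transcriptomes and from heavy means of 27.65, 16.47 and 14.62 CPM to 8.03, 3.33 and 15.61 CPM, a difference of 3.11 on the log2 scale (SE 0.45, limma adjusted p = 3.71e-07). All fits but edgeR (adjusted p = 0.409) called it. In MII oocytes 25 of 30 fractions held more Figla than the highest transcriptome, 1.58 CPM, and in zygotes also 25 of 30. Nobox likewise exceeded the highest transcriptome in 29 of 30 MII fractions and 28 of 30 zygote fractions, averaging 835.1 and 838.7 CPM over the fractions against 146.8 and 126.4 CPM, but its interaction from GV to MII (1.07, limma adjusted p = 0.159) did not pass. Oosp1 was the reverse, with all 30 zygote fractions under the lowest transcriptome, 672.3 ± 96.6 CPM (SD, n = 3) over the fractions and 5973 CPM in transcriptomes. Its interaction from MII to zygote was -1.87 (SE 0.57, limma adjusted p = 0.0505), where no member was called (1.64% of all genes higher and 1.77% lower, 3.41% in all), and without replicate C it was called (-2.30, limma adjusted p = 0.0485). At the step to the 2-cell stage the heavy change was below the transcriptome change for Kit (-4.53, SE 0.96, limma adjusted p = 0.00183) and Figla (-2.70, SE 0.86, limma adjusted p = 0.0394), 2 of 7 where 0.191% of all genes were higher and 8.47% lower (8.66% in all) and the median of all genes was -0.89. The call of Kit was lost without replicate A and that of Figla without replicate A, B or C. No member was called at the step to the 4-cell stage (0.844% of all genes higher and 1.73% lower, 2.57% in all), with 3 called higher and 1 lower by edgeR. Each CPM is a share of its own library, so a transcriptome level and a fraction level are shares of different pools, and what set them apart was not tested.

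The start regions of the members are shown as a description. Whether they bear on the loss between the 2-cell and 4-cell stages was not tested. RefSeq's promoter table (GRCm38.p6) held 5 of the 7, and the 250 bases before the transcription start are printed 5′ to 3′ on the gene's strand for the 4 of them that are known mainly from the oocyte, with Kit searched but not shown. Capitals mark matches, on either strand, to the E-box CANNTG, the kind of site bound by FIGLA and its partners, or to TAATTG or TAATTA, letters of the NOBOX binding element. No match of one kind overlapped the other.
Nobox, chr6:43309555-43309804, minus strand: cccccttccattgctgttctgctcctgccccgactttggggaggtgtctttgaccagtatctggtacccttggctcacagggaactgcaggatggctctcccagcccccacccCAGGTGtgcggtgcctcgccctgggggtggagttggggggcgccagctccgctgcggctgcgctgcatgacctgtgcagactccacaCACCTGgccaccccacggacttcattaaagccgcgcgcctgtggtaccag
Figla, chr6:86016941-86017190, plus strand: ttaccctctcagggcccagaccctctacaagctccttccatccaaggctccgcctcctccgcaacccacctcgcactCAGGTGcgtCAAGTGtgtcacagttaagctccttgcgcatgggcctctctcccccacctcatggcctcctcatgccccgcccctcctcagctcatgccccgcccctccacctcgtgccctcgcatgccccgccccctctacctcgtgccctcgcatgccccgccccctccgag
Oosp1, chr19:11691052-11691301, minus strand: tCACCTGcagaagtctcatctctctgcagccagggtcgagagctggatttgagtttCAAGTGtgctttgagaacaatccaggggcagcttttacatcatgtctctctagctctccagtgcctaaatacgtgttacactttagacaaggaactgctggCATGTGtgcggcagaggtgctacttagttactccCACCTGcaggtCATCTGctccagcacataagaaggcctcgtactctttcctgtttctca
Bmp15, chrX:6320725-6320974, minus strand: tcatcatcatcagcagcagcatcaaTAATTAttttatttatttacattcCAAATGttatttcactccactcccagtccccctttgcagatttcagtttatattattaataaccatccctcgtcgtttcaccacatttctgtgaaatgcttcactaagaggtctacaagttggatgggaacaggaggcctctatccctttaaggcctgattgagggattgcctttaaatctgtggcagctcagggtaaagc

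Oosp1 had 5 E-box matches in these 250 bases, Nobox and Figla 2 each, Bmp15 1 and Kit 0, while 66% of the 27025 promoters searched held at least 1. The NOBOX letters TAATTA stood in Bmp15, beginning 225 bases before the start, and the element was in 11.5% of all promoters searched. These matches describe letters only, and Oosp1, Nobox, Figla and Bmp15 had different histories before the 2-cell stage. Each fell after it, but Figla from a mean of only 1.77 CPM, a call lost under quantile normalization.

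The other genes of these pathways, taken from lists by function, gave further context in the transcriptomes. Of 4 other factors secreted by the oocyte, Fgf8 and Bmp6 fell from GV to MII, where 25.3% of all genes fell. Fgf8 went from 219.9 to 3.98 CPM (log2 change -5.50, limma adjusted p = 3.19e-21). Both rose again in the zygote, where 5.79% of all genes rose, Fgf8 to 28.33 and Bmp6 from 10.43 to 30.9 CPM. All 4 (Bmp6, Fgf8, Rspo2 and Tgfb2) fell to the 4-cell stage, where 32.9% of all genes fell, Tgfb2 from 1592 to 6.02 CPM. The median change of the 4 at that step was -4.66, and that of all genes was 0.02. Of 18 receptors, SMADs and processing enzymes for GDF9 and BMP15, 11 fell and 1 rose at the 2-cell to 4-cell step (32.9% and 31.8% of all genes), with a median change of -1.08. Bmpr1b, a type I receptor, went from 45.78 to 1.59 CPM, Smad3 from 51.89 to 2.19 CPM, and Smad4, the shared SMAD partner, rose from 17.58 to 63.03 CPM. From GV to MII 3 of the 18 rose, Acvr1, Acvr1b and the type II receptor gene Bmpr2 (96.3 to 200.8 CPM), and 1, Pcsk6, fell (9.11% and 25.3% of all genes).

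Of 18 genes of the KIT pathway, 4 rose and none fell from GV to MII (9.11% and 25.3% of all genes), Akt1 among them (19.82 to 46.86 CPM, log2 change 1.12, limma adjusted p = 0.000296). At the 2-cell to 4-cell step, where Kit itself fell, 6 rose and 5 fell with a median change of 0.20, shares close to the 31.8% and 32.9% of all genes. The exchange factor gene Sos1 (9.84 to 165.9 CPM) rose, and the Src-family kinase gene Fyn (58.55 to 2.53 CPM) and the PI3 kinase subunit gene Pik3r1 (136.5 to 8.58 CPM) fell. Of 9 other oocyte transcription factors and FIGLA partners, 3 rose and 1 fell from GV to MII (9.11% and 25.3% of all genes). The one that fell, Lhx8, a LIM homeobox gene of the early oocyte, went from 122.7 to 25.7 CPM (log2 change -2.22, limma adjusted p = 4.24e-11), the same direction as Nobox and Figla. To the 4-cell stage 5 of the 9 fell and none rose (32.9% and 31.8% of all genes), Tbpl2, a TBP relative of the oocyte, from 70.73 to 0.0759 CPM.

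Of 10 oocyte genes known to be lowered in Nobox or Figla mutants, 4 fell from GV to MII (Zp1, Zp2, Zp3 and Padi6) and 1, Rfpl4, rose, where 25.3% of all genes fell and 9.11% rose. Zp3 went from 4034 to 543.2 CPM (log2 change -2.94, limma adjusted p = 3.07e-14). At the step to the zygote 6 fell (4.48% of all genes), at that to the 2-cell stage 7 (8.71%) and at that to the 4-cell stage 6 (32.9%), and none rose at these steps. From GV to MII, 4 of these 10 (Padi6, Zp2, Zp3 and Zar1) had a heavy change above their transcriptome change, as Figla had, and none below, where 12.3% of all genes were above and 4.34% below. The Oosp1 relatives Oosp2, Oosp3 and Plac1 all fell to the 4-cell stage (32.9% of all genes fell), Oosp3 from 1464 to 0.712 CPM (log2 change -9.71, limma adjusted p = 2.17e-31). In MII oocytes Oosp3 and Plac1 were called on the heavy side as Oosp1 was (8.86% of all genes), Oosp3 with 899 CPM heavy and 107.8 CPM light (log2 difference 2.94, limma adjusted p = 2.12e-07), and Oosp2 was not called (1260 against 990.2 CPM).

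Taf4b and its paralog Taf4, both subunits of TFIID, moved in opposite directions between the 2-cell and 4-cell stages. Taf4 fell from 35.97 ± 2.87 to 12.57 ± 1.24 CPM (SD, n = 4; log2 change -1.45, limma adjusted p = 1.52e-08), while Taf4b went from 57.62 to 210.5 CPM. Of the 15 TFIID genes other than Taf4b, 4 rose and 6 fell at that step, near the 31.8% and 32.9% of all genes. Taf9 rose from 41.9 to 223.4 CPM and its paralog Taf9b fell from 679.7 to 0.484 CPM (log2 change -8.90, limma adjusted p = 1.9e-26). From GV to MII 5 of the 15 rose and 2 fell (9.11% and 25.3% of all genes), Tbp from 243.8 to 99.51 CPM.

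For each member the 3 genes with the most similar stage profile were taken by Pearson's r of mean log2(CPM + 1) over the 8 stages, among 14641 other genes, as a description. With so few points that share the drop at the 4-cell stage, high values are common. Gdf9 was most like Fbxw19 (r = 0.998), H1f8 and Dnah8; Bmp15 like Nlrp9a (r = 0.999), Creb3l4 and Mfap2. Oosp1 was nearest to Rgs17, Terb1 and Meis2, Nobox to Oas1c, Skap1 and Aadat, and Kit to Nlrp4a, Pias1 and E330021D16Rik. Oas1c went from 1060 to 239.7 CPM between GV and MII, as Nobox did from 564.3 to 146.8 CPM. Figla was nearest to Col22a1 (r = 0.997), 1700012I11Rik and Gm3302, all at 7.23 CPM or less in GV oocytes. Taf4b was nearest to Rbsn (r = 0.988), which had 34.6 CPM at the 2-cell and 172.1 CPM at the 4-cell stage, and then Gm11732 and Gm28729. Among the members, r was 0.986 for Gdf9 and Kit, 0.99 for Bmp15 and Oosp1, 0.745 for Figla and Nobox, and between -0.648 and -0.546 for Taf4b with each of the other 6.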

How the data were processed

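The authors deposited 1 table of CPM per gene symbol and library; per the submitters' processing notes, Trim Galore 0.6.7, FastQC, HISAT2 2.2.1, featureCounts 2.0.1 and edgeR were used on build GRCm39, with the annotation and strand setting not given in the sources used here. In 38 columns the deposited CPM values sum above the CPM total, before repeated symbols are removed, and 9 columns were recorded as a signal that the authors had scaled to the library total; 1 symbol of each of 76 identical groups was kept, 15771 in all. Values were whole reads in 271 of 272 libraries (100% of values, tolerance 0.05 reads). No 2 replicates agreed within sampling noise (lowest chi-square per gene 2.74). Columns of the 2-cell transcriptomes carry letters other than the labels' and were used without one.

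limma 3.58.1 (R 4.3.3) tested log2(CPM + 1), a pseudocount of 1 CPM, in genes with at least 1 CPM in 4 transcriptomes or 3 gradient means, in 4 fits: transcriptome steps, heavy means (fractions 6 to 10), heavy against light means, and heavy change minus transcriptome change. Fits with fractions used variance weights per stage, chosen because an earlier description of these data calls the 2-cell and 4-cell gradients uneven. The fits were tested on simulated data, where unchanged genes of equal mean CPM were called lower more often on the heavy side at the steps into the 2-cell and 4-cell stages than at the earlier steps, and not when made equal on the log2 scale, so called falls there (Kit, Gdf9, Bmp15, Oosp1, Nobox) can hold scatter. Many changes built into those data were missed. The test compares means of log2 values, which lie lower where gradients of a stage hold many 0s. Alternatives were another pseudocount, no filter, quantile normalization, edgeR 4.0.16 on recovered reads, a replicate block, left-out replicates, other fraction ranges and no weights. Another used only the compared groups, also without weights. The heavy and light means of 1 gradient share a lysate, which pairs them; their deviations from stage means correlated by 0.006 to 0.257 over 24 gradients. A group at or under 3 reads in each sample counts as at the floor. Reads carry no molecular identifiers, so floors cover counting error only. The members, lists and motifs were chosen with earlier results of these data known; named genes are the 7 members, the 3 most similar per member and, per list and step, up to 3 called genes with the largest changes. Smad4, Bmpr2, Taf4, Tbp and Oosp2 were named outside this rule, after their values were seen. More than 3 called genes were also named for the secreted factors and for the genes lowered in Nobox or Figla mutants.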

Additional observations from a re-analysis of the deposited data

Results flagged for a closer look

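Of 56 groups of 4 transcriptomes (7 genes, 8 stages), 4 had 1 library far from the other 3 by Dixon's test at the 95% level, where chance gives about 1 in 20. Nobox had 175.9 CPM in 1 zygote library, with the next at 113.3 CPM, and 185.5 CPM in 1 library of 2-cell embryos, with the next at 104.7 CPM. Bmp15 had 4.04 CPM in 1 morula library, with the next at 2.33 CPM. Nobox had 0.056 CPM, which is 1 read, in 1 blastocyst library and 0 in the other 3. That group is at the floor, and with 0 in the other 3 any read would be flagged.

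In 3 cases the change on the heavy side differed from the change in the transcriptome by a test of that difference. These were Figla from GV to MII (3.11 on the log2 scale), Kit from zygote to 2-cell (-4.53) and Figla from zygote to 2-cell (-2.70).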

How the results depend on the processing

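No member that was called reversed its direction under any alternative run. Of the member values under alternatives, 495 of 525 in transcriptomes kept their side of the threshold, 284 of 306 on the heavy side, 582 of 660 for heavy against light, and 355 of 378 for heavy change beyond transcriptome change. The genes of the pathway lists were not retested, and mean levels moved by over 1 SD in 16 of 56 cases under TMM scaling, mostly in MII oocytes and zygotes. Gradient positions moved by over 1 SD in 9 of 28 cases without fraction 1, the lowest number in the mean: in GV oocytes to 6.18 (Gdf9), 7.21 (Bmp15), 6.38 (Oosp1), 5.42 (Nobox) and 7.55 (Kit), in zygotes to 5.93 (Bmp15) and 5.76 (Figla), and in 2-cell embryos to 5.23 (Gdf9) and 6.80 (Oosp1).

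On recovered reads edgeR called 49.3% of all genes from GV to MII in transcriptomes and 1.03% for heavy against light in MII oocytes. The main fits called 34.5% and 15.2% there, so the share of all genes called differs between settings. Member counts below are given without that share. They compare the settings and do not set the members against all genes. The counts of members called moved as follows, and the cause was not tested. With edgeR on recovered reads, transcriptomes gave 2 higher from GV to MII, 4 lower from 8-cell to morula and 5 lower in blastocysts. The heavy side gave 0 lower from MII to zygote and 0 lower from zygote to 2-cell. Heavy against light gave 0 higher in GV, 0 higher and 0 lower in MII, 0 higher and 0 lower in zygotes, and 1 lower in blastocysts. Heavy beyond transcriptome gave 0 higher from GV to MII, 0 lower from zygote to 2-cell, and 3 higher (Bmp15, Gdf9, Oosp1) and 1 lower (Nobox) from 2-cell to 4-cell.

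With no weights and 1 shared spread, the heavy side gave 0 lower from MII to zygote and 2 lower from zygote to 2-cell. Heavy against light gave 0 higher in GV, 0 higher and 0 lower in MII, 0 higher and 0 lower in zygotes, 1 lower in 2-cell, 2 lower in 4-cell, 1 lower in 8-cell and 0 lower in blastocysts. Heavy beyond transcriptome gave 1 higher (Kit) and 1 lower (Nobox) from 2-cell to 4-cell. Fits restricted to the stages of each comparison also used no weights, so the 2 changes cannot be told apart. In these the heavy side gave 2 higher from GV to MII, 2 lower from MII to zygote and 3 lower from zygote to 2-cell. Heavy against light gave 0 higher in GV and 0 lower in 4-cell. Heavy beyond transcriptome then gave 2 higher from GV to MII, 1 lower from MII to zygote, 1 higher from zygote to 2-cell and 1 lower from 2-cell to 4-cell.

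With a pseudocount of 0.1 CPM, transcriptomes gave 3 lower from 8-cell to morula and 4 lower in blastocysts, and the heavy side 0 lower from MII to zygote and 2 lower from 2-cell to 4-cell. Heavy against light gave 1 higher and 0 lower in MII, 1 higher and 0 lower in zygotes and 1 lower in 8-cell, and heavy beyond transcriptome 1 lower from zygote to 2-cell. With quantile normalization, transcriptomes gave 1 lower from zygote to 2-cell, 2 lower from 8-cell to morula and 3 lower in blastocysts. From GV to MII the 1 called higher was then Taf4b in place of Oosp1. Heavy against light gave 0 higher in GV, 2 lower in zygotes and 1 lower in 8-cell, and heavy beyond transcriptome 1 lower from zygote to 2-cell. With no filter on low values, heavy against light gave 1 lower in 8-cell (Nobox) and heavy beyond transcriptome 1 lower from MII to zygote (Oosp1).

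With heavy fractions 8 to 10, the heavy side gave 0 lower from MII to zygote and heavy beyond transcriptome 1 lower from zygote to 2-cell. With heavy fractions 8 to 10 and light fractions 1 to 3, heavy against light gave 0 higher in GV, 0 higher and 2 lower in zygotes, 2 lower in 4-cell and 1 lower in 8-cell. With light fractions 2 to 5, an alternative chosen after seeing the low depth of fraction 1, it gave 2 higher in MII and 1 lower in blastocysts.

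The replicate letters do not pair samples across stages (median correlation of same-lettered deviations 0.016 in transcriptomes). With a replicate block, heavy against light gave 1 lower in 8-cell (Nobox), and no other count of members called moved by over 1.5 times. No paired analysis was possible for steps with 2-cell transcriptomes because their columns carry no letter of the labels.

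Leaving out 1 replicate at a time gave ranges. In transcriptomes these were 0 to 1 lower from 4-cell to 8-cell, 1 to 2 lower from 8-cell to morula and 1 to 3 lower in blastocysts. On the heavy side they were 0 to 1 lower at each of the steps from GV to MII, MII to zygote and zygote to 2-cell. Heavy against light gave 0 to 1 higher in GV, 0 to 1 higher and 0 to 1 lower in MII, 0 to 1 higher in zygotes, 0 to 1 lower in 4-cell, 1 to 2 lower in morulae and 1 to 2 lower in blastocysts. Heavy beyond transcriptome gave 0 to 1 lower from MII to zygote and 0 to 2 lower from zygote to 2-cell.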
